A study of Rattus norvegicus with 20 samples.

Results

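The glucocorticoid receptor gene Nr3c1 (ENSRNOG00000014096) and the receptor's target genes Fkbp5 (ENSRNOG00000022523) and Sgk1 (ENSRNOG00000011815) were followed in rat heart ventricles. The 3 genes were taken by Ensembl ID, and all 3 were found among the 24059 IDs counted and among the 14293 genes that passed the filter on low counts. RNA of 20 ventricles from male rats on the Sprague Dawley background was sequenced, 5 rats in each of 4 groups and 1 rat per library. WT control and Vegfb KO control rats had no diabetes. WT diabetic and Vegfb KO diabetic rats had received STZ (streptozotocin) intravenously at 55 mg/kg and were sampled on day 4 of diabetes. STZ kills beta cells of the pancreas and so lowers insulin. In Vegfb KO rats a reporter gene had been inserted into Vegfb with zinc-finger nucleases, so that the gene was disrupted in every tissue from conception on, while WT rats carried the intact gene and controls were littermates of diabetic rats, per the series text. Which rats shared a litter is not given in the sources used here, and litter is in no fit. Sample titles give week 9 as the age, and the series text gives 7 weeks as the age up to which rats were housed.

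Glucocorticoids enter the cell and bind the receptor encoded by Nr3c1, which is held in the cytoplasm by chaperones and moves to the nucleus, where it binds glucocorticoid response elements. Fkbp5 encodes a co-chaperone that lowers the receptor's affinity for hormone, and its transcription is induced by the receptor, which closes a negative feedback loop. Sgk1 encodes a serine/threonine kinase that acts on ion channels and transporters, and its transcription responds to glucocorticoids, mineralocorticoids, insulin, serum and cell stress. Cardiomyocytes express the receptor. Corticosterone is the main glucocorticoid of the rat.

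Library totals ranged from 7220469 to 26664479 estimated counts. Their medians were 21777484 in WT control, 21669304 in WT diabetic, 20712821 in Vegfb KO control and 20168819 in Vegfb KO diabetic rats. A pair of libraries stood apart, WT diabetic replicate 2 and Vegfb KO diabetic replicate 1, in which 1 gene ID took 23.3% and 25.5% of the counts. In the other 18 libraries that ID took 0.114% to 5.28%. Levels are given as CPM, the counts of a gene per 1000000 counts of its library, after TMM scaling, a normalization that sets the bulk of genes level between libraries. No transcript lengths were used, so levels are compared between rats for 1 gene at a time. In whole ventricle, fewer cells of a type and less RNA per cell cannot be told apart. The ID of Vegfb was not matched to its symbol, so the knockout was not checked in these counts.

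Counts were tested with edgeR over all 14293 genes, with Benjamini-Hochberg adjustment. A gene was called at an adjusted p under 0.05 and a log2 fold change beyond 0.27 in either direction. Of the 3 genes, 1 was called higher in WT diabetic than in WT control rats, where 6.06% of all genes were called higher and 7.07% lower. In Vegfb KO rats 0 of the 3 were called between diabetic and control with edgeR, against 3.63% of all genes called higher and 4.21% lower. An unadjusted p under 0.05 was found there for 3060 genes (21.4%). For the mean of both diabetes contrasts 1 of the 3 was called, and 7.91% of all genes were called higher and 8.3% lower. The gene called was Fkbp5 both times.

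Nr3c1, the receptor itself, had the steadiest level. It reached 85.6, 88.0, 87.6, 76.9 and 85.6 CPM in WT control replicates 1 to 5, and 84.7, 87.5, 90.7, 85.3 and 79.6 CPM in WT diabetic replicates 1 to 5. In Vegfb KO control replicates 1 to 5 it was at 94.1, 84.0, 82.5, 91.4 and 86.0 CPM, and in Vegfb KO diabetic replicates 1 to 5 at 102.3, 92.3, 105.1, 87.3 and 94.7 CPM. All 4 groups overlapped one another, and Vegfb KO diabetic replicates 1 and 3 were the highest of the 20 rats, replicate 1 being one of the libraries that stand apart. The lowest rat was WT control replicate 4. Counts of Nr3c1 ran from 512 to 2303 per library, so that the counting error was at most 4.42%. Its SD within groups was 0.086 on the log2 scale, lower than in all but 1.67% of the genes tested, for which the median SD was 0.21.

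The mean level of Nr3c1 was 84.8 ± 4.51 CPM in WT control (SD, n = 5), 85.6 ± 4.08 in WT diabetic, 87.6 ± 4.95 in Vegfb KO control and 96.3 ± 7.29 in Vegfb KO diabetic rats. In this order the first neighbours differed by less than their spread, with an exact permutation p of 0.786 (two-sided) between WT control and WT diabetic rats. WT diabetic and Vegfb KO control means lay within 1 SD of each other and were not tested, since the rats differ in both genotype and diabetes. Between Vegfb KO control and Vegfb KO diabetic rats the exact permutation p was 0.0556.

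The log2 fold change of Nr3c1 with diabetes was 0.014 ± 0.068 (SE) in WT rats, with a 95% confidence interval of -0.13 to 0.16 and an edgeR adjusted p of 0.927, and it was -0.019 without WT control replicate 4. In Vegfb KO rats it was 0.14 ± 0.068, with an interval of -0.0050 to 0.28 and an edgeR adjusted p of 0.251, and 4 of 5 diabetic rats lay above the control mean. Between the genotypes it was 0.049 ± 0.068 in controls (edgeR adjusted p = 1.00), from 0.016 without WT control replicate 4 to 0.070 without Vegfb KO control replicate 3 when each library was left out, and 0.00090 with thinned counts. In diabetic rats it was 0.17 ± 0.068, an edgeR adjusted p of 0.452, and the exact permutation p for this gene alone was 0.0238. Without both libraries that stand apart, Nr3c1 had a log2 fold change with diabetes of 0.0032 ± 0.070 in WT and 0.11 ± 0.070 in Vegfb KO rats (edgeR adjusted p = 0.987 and 0.392), and of 0.16 ± 0.074 between the diabetic genotypes (edgeR adjusted p = 0.467). The receptor gene was not called in any of these contrasts, and with all libraries the highest upper limit of the intervals was 0.31 on the log2 scale.

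**Figure D1:**
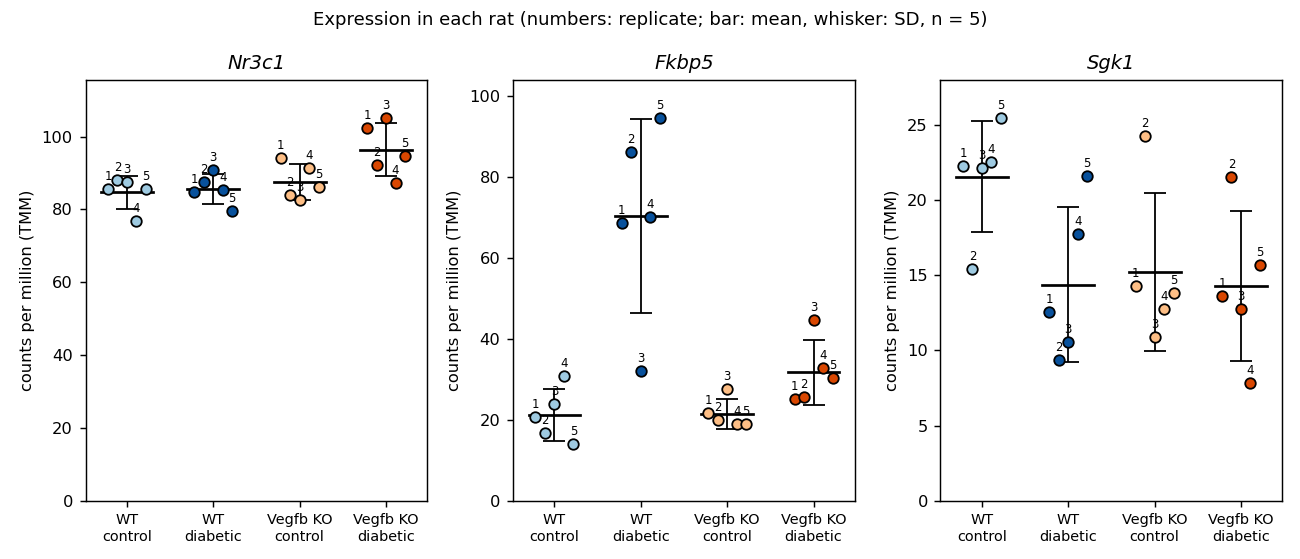
Level of Nr3c1, Fkbp5 and Sgk1 in each rat, in CPM after TMM scaling on a linear axis from 0. Points are rats with their replicate number, bars are group means and whiskers the SD over 5 rats. WT diabetic rats lie above all WT control rats for Fkbp5, with replicate 3 at 32.1 CPM close to the highest control at 30.8 CPM.

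Fkbp5, the co-chaperone of the receptor, was the only one of the 3 genes that was called. Its promoter is shown because it belongs to the target that was called with diabetes while the other target was not, together with 1 of the 3 promoters listed for Sgk1, the one that holds most motifs. Both come from RefSeq, build GRCr8, and run from 250 bases before to 50 bases after the start of transcription. The window of Fkbp5 is chr20:6543506-6543805 on the minus strand and that of Sgk1 chr1:24804782-24805081 on the minus strand. Capitals mark the GC box GGGCGG on either strand and the TATA box TATAAA.
Fkbp5 promoter: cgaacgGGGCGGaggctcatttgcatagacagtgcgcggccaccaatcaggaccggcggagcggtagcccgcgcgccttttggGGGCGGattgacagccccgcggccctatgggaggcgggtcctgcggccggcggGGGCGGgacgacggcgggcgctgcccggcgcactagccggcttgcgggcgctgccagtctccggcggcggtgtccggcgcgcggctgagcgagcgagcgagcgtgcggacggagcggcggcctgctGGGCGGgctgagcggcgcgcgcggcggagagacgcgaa
Sgk1 promoter: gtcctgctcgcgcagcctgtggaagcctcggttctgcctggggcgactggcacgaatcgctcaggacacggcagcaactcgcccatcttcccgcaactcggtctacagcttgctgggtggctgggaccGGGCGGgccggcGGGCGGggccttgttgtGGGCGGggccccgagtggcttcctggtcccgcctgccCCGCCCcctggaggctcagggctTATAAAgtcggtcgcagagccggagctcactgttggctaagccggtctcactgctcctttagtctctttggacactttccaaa

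The glucocorticoid response element was searched on both strands as the arms AGAACA and TGTTCT with any 3 bases between them, and as either arm alone, which every full element also holds. Neither was found in the 6 promoter windows listed for the 3 genes, 2 for Nr3c1, 1 for Fkbp5 and 3 for Sgk1. Of all 33469 promoter windows of 300 bases, 5 held the full element (0.0149%) and 20.7% a single arm. No match says only that these letters are not in these windows. The Fkbp5 window was 77.0% G and C and held 4 GC boxes, at -244, -167, -114 and 13 from the start. The Sgk1 window shown was 66.0% G and C and held 4 GC boxes and a TATA box at -33 to -28. Of the other Sgk1 windows, 1 was 40.7% G and C with 0 GC boxes and a TATA box. The other was 51.7% G and C with 2 GC boxes and no TATA box. The Nr3c1 windows held 1 and 4 GC boxes. At least 1 GC box was found in 33.1% and at least 1 TATA box in 14.2% of all windows.

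Fkbp5 was at 20.6, 16.8, 23.8, 30.8 and 14.0 CPM in WT control replicates 1 to 5, and at 68.8, 86.3, 32.1, 70.2 and 94.6 CPM in WT diabetic replicates 1 to 5. All 5 WT diabetic rats lay above the highest WT control rat, replicate 4, so the groups did not overlap; of all genes tested, 4.04% were higher without overlap in this comparison. WT diabetic replicate 3 was the exception among the diabetic rats, at 1.51 times the mean of WT controls, while the other 4 were at 3.24 to 4.46 times that mean. In Vegfb KO control replicates 1 to 5 the level was 21.7, 20.0, 27.6, 18.9 and 18.9 CPM, and in Vegfb KO diabetic replicates 1 to 5 it was 25.2, 25.6, 44.8, 32.8 and 30.3 CPM. In Vegfb KO, 3 of 5 diabetic rats lay above the highest control and the other 2 within the range of the controls, so the groups overlapped. Relative to the mean of Vegfb KO controls, the diabetic rats were at 1.18 to 2.09 times.

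The means of Fkbp5 were 21.2 ± 6.53 CPM in WT control (SD, n = 5), 21.4 ± 3.65 in Vegfb KO control, 31.7 ± 7.96 in Vegfb KO diabetic and 70.4 ± 24.0 in WT diabetic rats. The controls at the low end did not differ beyond their spread, with an exact permutation p of 0.810. The next step, from Vegfb KO control to Vegfb KO diabetic rats, had an exact permutation p of 0.0238. The last step, from Vegfb KO diabetic to WT diabetic rats, had the same exact permutation p of 0.0238, and the groups overlapped because WT diabetic replicate 3 lay below Vegfb KO diabetic replicates 3 and 4. Counts of Fkbp5 ran from 126 to 2170 per library, and the counting error of the lowest, 8.91%, was below the spread between rats, which was 17.1% to 34.1% of the mean in the 4 groups. The SD within groups was 0.43 on the log2 scale, higher than in 81.3% of genes tested.

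With diabetes Fkbp5 rose in WT rats by a log2 fold change of 1.72 ± 0.26 (SE), which is 3.28-fold, with a 95% confidence interval of 1.17 to 2.26. The edgeR adjusted p was 0.000201, and it ranked 69 from the highest among the log2 fold changes of the 14293 genes. Permuting the labels of these 10 rats gave an exact p of 0.00794 (two-sided), the smallest that 5 against 5 rats allow. Without both libraries that stand apart, the log2 fold change was 1.63 ± 0.28 and the edgeR adjusted p 0.00110. Leaving out any 1 of the 20 libraries gave 1.58 to 1.91, with the gene called each time.

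In Vegfb KO rats the log2 fold change of Fkbp5 with diabetes was 0.58 ± 0.26, with a 95% confidence interval of 0.039 to 1.12, and all 5 diabetic rats lay above the control mean. This difference was not called over all genes (edgeR adjusted p = 0.197), although a fit of only these 10 libraries gave the same log2 fold change with an SE of 0.16 and called it (edgeR adjusted p = 0.0331). Over the 11 alternatives other than leaving out single libraries the edgeR, DESeq2 or limma adjusted p ranged from 0.0331 to 0.290, and with each of the 20 libraries left out the edgeR adjusted p ran from 0.0697 to 0.455. Without Vegfb KO diabetic replicate 3, the highest of its group, the log2 fold change was 0.42 (edgeR adjusted p = 0.455). For the mean of both diabetes contrasts Fkbp5 rose by 1.15 ± 0.18 (edgeR adjusted p = 0.000157).

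**Figure D2:**
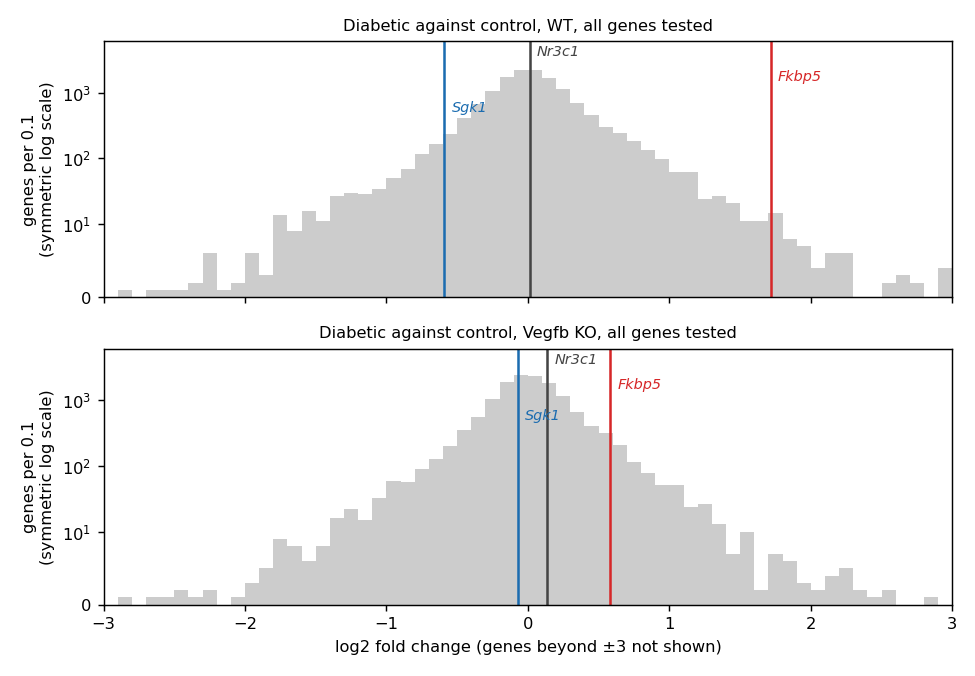
Log2 fold change between diabetic and control rats of all 14293 genes, in WT rats above and Vegfb KO rats below, as the number of genes per 0.1 on a symmetric log axis, with Nr3c1, Fkbp5 and Sgk1 as lines. Fkbp5 lies at 1.72 in WT, where it ranked 69 from the highest, and at 0.58 in Vegfb KO, where it ranked 674.

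The genotypes were then compared directly, and whether diabetes acts differently on these genes without Vegfb was tested as an interaction. With edgeR's quasi-likelihood test and all libraries, 0 of the 3 genes were called in controls, and in diabetic rats 0 of the 3. In diabetic rats DESeq2 and edgeR's likelihood ratio test did call Fkbp5, as given below. Over all genes edgeR's quasi-likelihood test called 0% higher and 0.028% lower in Vegfb KO than in WT controls, and 0% higher and 0.042% lower in diabetic rats. Unadjusted p-values under 0.05 numbered 527 in controls (3.69% of genes) and 1285 in diabetic rats (8.99%). The first share is below and the second above the 0.05 that chance alone would give. In controls DESeq2 and limma also called 0 genes higher, and limma called 0 higher in diabetic rats. In diabetic rats DESeq2 called 12 genes higher and 53 lower, edgeR's likelihood ratio test 7 higher and 31 lower, and the quasi-likelihood test without WT diabetic replicate 3 called 76 higher and 105 lower.

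Fkbp5 did not differ between control rats of the genotypes beyond its spread. The log2 fold change was -0.00045 ± 0.26, with a 95% confidence interval of -0.54 to 0.54, and its sign turned under 7 of 11 alternatives and, with each library left out, it ran from -0.12 to 0.18. In diabetic rats Fkbp5 had a log2 fold change of -1.13 ± 0.25 in Vegfb KO against WT, 0.456 times the WT level, with an interval of -1.67 to -0.60. Only 24 of the 14293 genes had a smaller unadjusted p, yet the edgeR adjusted p was 0.178 and the gene was not called. DESeq2 gave -1.15 and called it (adjusted p = 0.00815), as did edgeR's likelihood ratio test (adjusted p = 0.00846), and over the 11 alternatives other than leaving out single libraries the adjusted p ranged from 0.00815 to 0.453. With each of the 20 libraries left out, the edgeR adjusted p of the quasi-likelihood test ran from 0.00252 to 0.509. Fkbp5 was called in 1 of these fits, without WT diabetic replicate 3, at -1.33 ± 0.20 (edgeR adjusted p = 0.00252). That rat was the lowest of its group, so leaving it out widens the difference. Its gap to the nearest rat was 0.587 of the group's range, below the 0.71 used to flag a rat. Without both libraries that stand apart it was -0.99 ± 0.29, with an edgeR adjusted p of 0.331.

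The interaction of Fkbp5, the diabetes difference in Vegfb KO minus that in WT rats, was -1.13 ± 0.36 on the log2 scale, with a 95% confidence interval of -1.90 to -0.37. After adjustment over all genes its edgeR p was 1.00, so a difference between the responses of the genotypes was not called. For 46 of the 14293 genes the unadjusted p was smaller. Over all genes the interaction was called for 0% by edgeR, and DESeq2 and limma called 0. An unadjusted p under 0.05 was found for 600 genes (4.20%), fewer than chance alone would give. Without WT diabetic replicate 3 the interaction was -1.32 ± 0.28 (edgeR adjusted p = 0.185), and without both libraries that stand apart it was -0.995 ± 0.39 (edgeR adjusted p = 0.808).

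**Figure D3:**
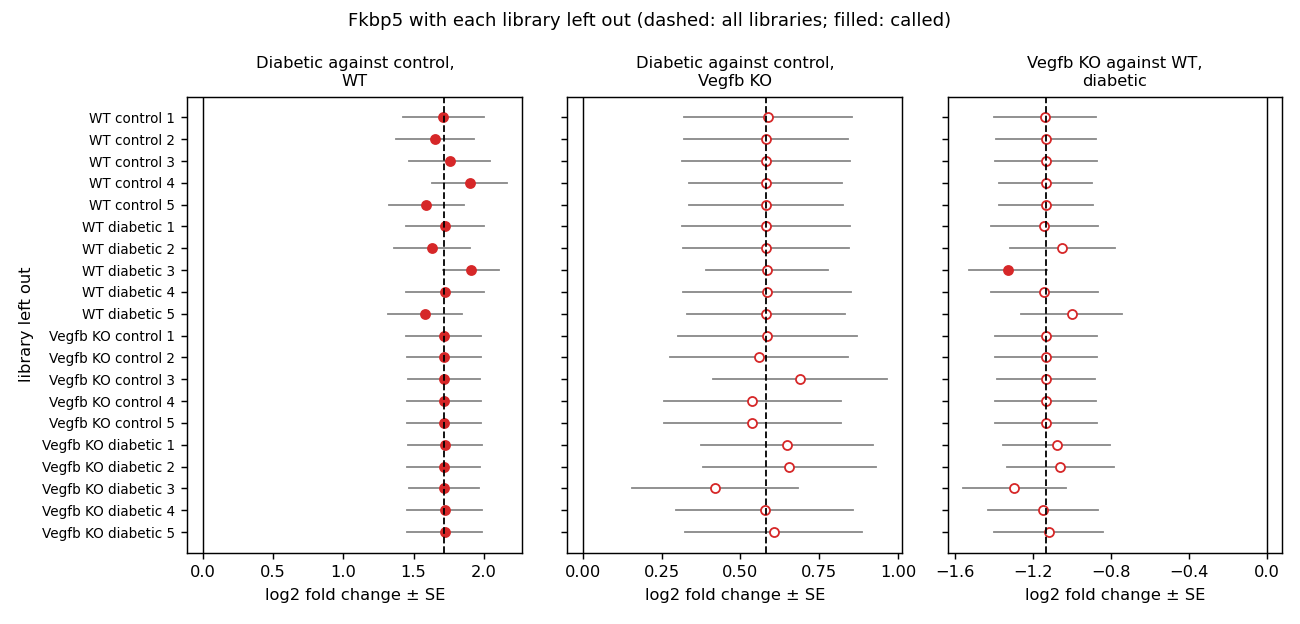
Log2 fold change of Fkbp5 with each library left out in turn, for diabetes in WT, diabetes in Vegfb KO and Vegfb KO against WT in diabetic rats. Points are estimates with their SE as lines, filled where the gene was called, and dashed lines are the estimates from all libraries. The comparison of diabetic rats is filled only without WT diabetic replicate 3, at -1.33.

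Sgk1, the kinase target, was at 22.3, 15.4, 22.1, 22.6 and 25.5 CPM in WT control replicates 1 to 5, and at 12.6, 9.38, 10.5, 17.7 and 21.6 CPM in WT diabetic replicates 1 to 5. In WT diabetic rats 3 of 5 lay below the lowest WT control, replicate 2, and the other 2 lay within the range of the controls. In Vegfb KO control replicates 1 to 5 it was at 14.3, 24.3, 10.9, 12.8 and 13.8 CPM, and in Vegfb KO diabetic replicates 1 to 5 at 13.6, 21.6, 12.8, 7.83 and 15.7 CPM. These groups overlapped widely, and replicate 2 was the highest rat in both. Counts of Sgk1 ran from 68 to 639 per library, and both ends of this range were the lowest of the 3 genes. The counting error at the lowest count was 12.1%. Its SD within groups was 0.45 on the log2 scale, higher than in 82.4% of genes tested.

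The means of Sgk1 were 14.3 ± 4.98 CPM in Vegfb KO diabetic (SD, n = 5), 14.4 ± 5.17 in WT diabetic, 15.2 ± 5.24 in Vegfb KO control and 21.6 ± 3.70 in WT control rats. The lower 3 groups lay within 1 SD of one another, with an exact permutation p of 0.984 between the diabetic groups and of 0.770 between the Vegfb KO groups. WT control and Vegfb KO control rats, the neighbours at the high end, had an exact permutation p of 0.0556.

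The log2 fold change of Sgk1 with diabetes in WT rats was -0.59 ± 0.27 (SE), with a 95% confidence interval of -1.15 to -0.034. The exact permutation p for this gene alone was 0.0476, but over all genes it was not called (edgeR adjusted p = 0.158), and 4 of 5 diabetic rats lay below the control mean. Without both libraries that stand apart the log2 fold change was -0.48 ± 0.28. In Vegfb KO rats it was -0.073 ± 0.27 (edgeR adjusted p = 0.916), and it was 0.16 without Vegfb KO control replicate 2 and 0.091 without Vegfb KO diabetic replicate 4. Between the genotypes it was -0.52 ± 0.26 in controls (edgeR adjusted p = 1.00) and -0.0036 ± 0.27 in diabetic rats (edgeR adjusted p = 1.00), where its sign turned under 2 of 11 alternatives and it ran from -0.22 to 0.19 with each library left out. The interaction of Sgk1 was 0.52 ± 0.38, with an interval of -0.28 to 1.31, and it was 0.30 without Vegfb KO diabetic replicate 2 and 0.75 without Vegfb KO control replicate 2. The interaction of Nr3c1 was 0.12 ± 0.096. Neither was called (edgeR adjusted p = 1.00 for both).

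**Figure D4:**
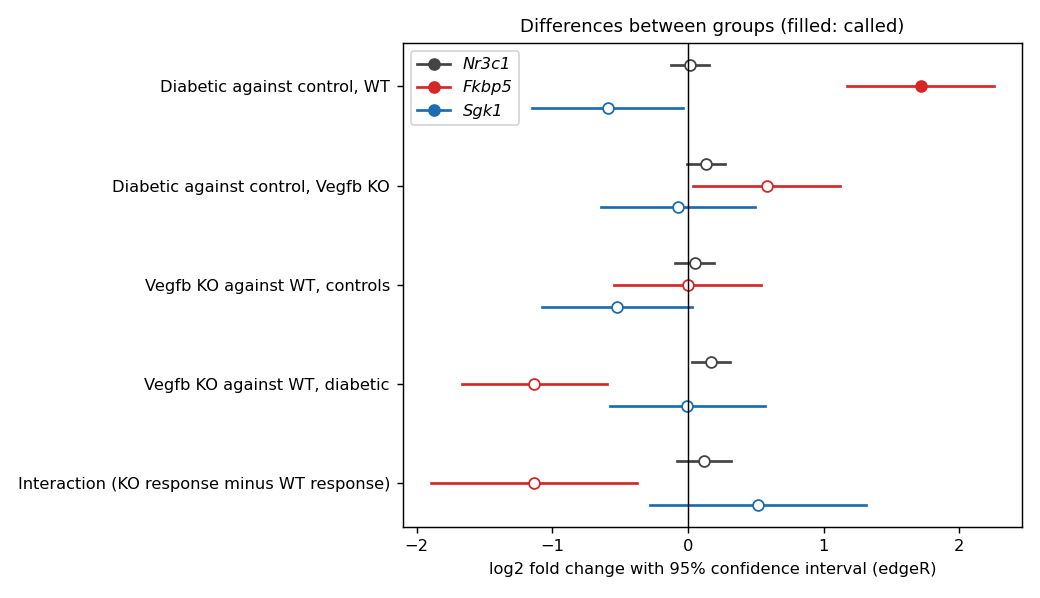
Log2 fold change of Nr3c1, Fkbp5 and Sgk1 with its 95% confidence interval from edgeR, filled where the gene was called, for diabetes in each genotype, Vegfb KO against WT in controls and in diabetic rats, and the interaction; the mean of both diabetes contrasts is not plotted. Among the contrasts plotted, the only filled point is Fkbp5 for diabetes in WT rats, at 1.72.

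The genes were also compared rat by rat, as deviations of log2 CPM from the mean of each rat's own group, over 20 rats and 3 pairs of genes. Nr3c1 and Fkbp5 had a Pearson r of -0.35 (permutation p = 0.132, adjusted over the 3 pairs 0.396) and a Spearman rho of -0.31 (permutation p = 0.203, adjusted 0.477). Without the 2 rats farthest from the median of Nr3c1 the r was -0.24. Nr3c1 and Sgk1 had an r of -0.18 (permutation p = 0.502, adjusted 0.754) and a rho of -0.26 (permutation p = 0.318, adjusted 0.477), and r was -0.51 without the same 2 rats, Vegfb KO diabetic replicate 4 and WT control replicate 4. The target genes Fkbp5 and Sgk1 had an r of 0.040 (permutation p = 0.891, adjusted 0.891) and a rho of -0.042 (permutation p = 0.871, adjusted 0.871), and r was -0.15 without the 2 rats farthest from the median of Fkbp5, WT diabetic replicate 3 and WT control replicate 4. With all 20 rats the adjusted permutation p was above 0.05 in all 3 pairs. With each of the 20 rats left out in turn, the r of Nr3c1 and Fkbp5 ran from -0.59 to -0.22. The adjusted permutation p ran from 0.0246 to 0.837 and was under 0.05 in 1 of these 20 fits. That fit left out Vegfb KO diabetic replicate 3 (r = -0.59, permutation p = 0.0082, adjusted 0.0246). It is the most extreme of the 20, and the adjustment covers the 3 pairs but not the choice of rat.

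**Figure D5:**
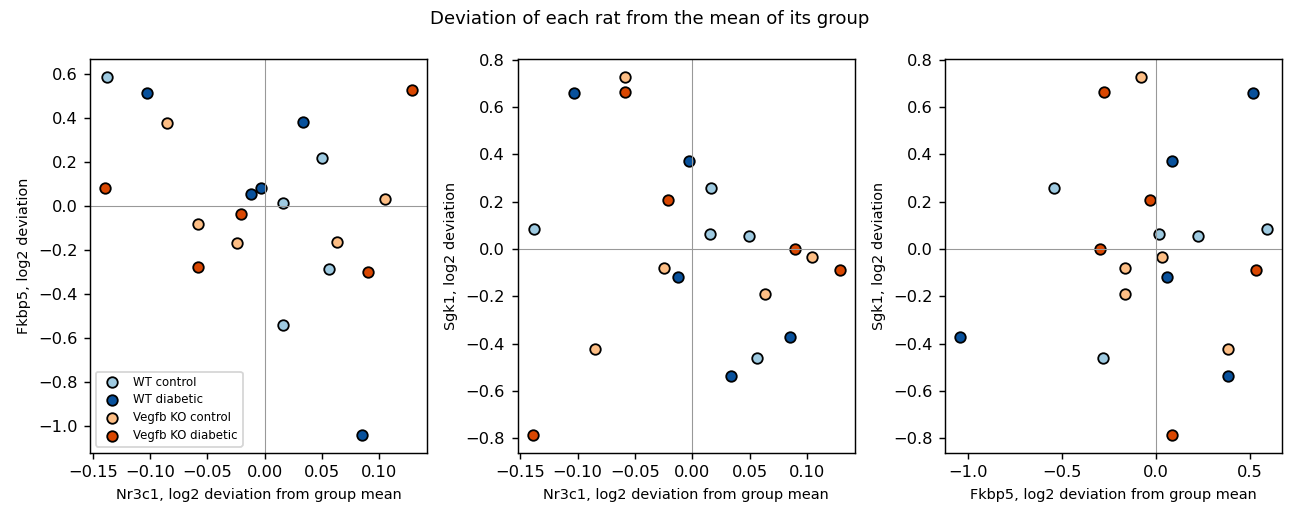
Deviation of each rat from the mean of its group in log2 CPM for the 3 pairs of Nr3c1, Fkbp5 and Sgk1, with 1 point per rat coloured by group. WT diabetic replicate 3 is the lowest point for Fkbp5. From left to right r was -0.35, -0.18 and 0.040.

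The genes whose deviations were most like those of each of the 3 were sought among 12767 genes with a mean of at least 1 CPM, over the same 20 rats. Such a search over many genes gives high values by selection, so they are a description. For Fkbp5 the closest was ENSRNOG00000030688 with an r of 0.88, and the next 9 had an r of 0.78 to 0.85. ENSRNOG00000030688 rose by a log2 fold change of 0.35 for the mean of both diabetes contrasts (edgeR adjusted p = 0.0394). Of the 10 genes closest to Fkbp5, 7 were called higher in that contrast and 0 lower, where 7.91% of all genes were called higher and 8.3% lower. These 10 were chosen by deviations in which WT diabetic replicate 3 was far below its group for Fkbp5 (-1.04 in log2 CPM). The search was not repeated without that rat, so the count of calls is a description too. For Sgk1 the closest was ENSRNOG00000058186 with an r of 0.86 and the next 9 had an r of 0.77 to 0.84, and of those 10, 1 was called higher for the mean of both diabetes contrasts and 0 lower, close to the share over all genes. For Nr3c1 the closest gene had an r of 0.83 and the next 9 an r of 0.78 to 0.83, and edgeR called 0 of these 10 in that contrast.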

How the data were processed

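The authors sequenced paired-end directional libraries and deposited estimated counts per Ensembl gene ID, with 1 column per rat. The submitters' processing notes name kallisto, edgeR, DESeq2 and the build mRatBN7.2, and the pipeline behind the deposited estimated counts is not given in the sources used here. Estimated counts can split reads between similar genes. They were rounded to whole numbers and analysed with edgeR 4.0.16 in R 4.3.3, with filterByExpr by group, TMM and a robust quasi-likelihood fit of all 20 libraries with a mean for each group. For the interaction the adjusted p alone made a call. Exact permutation tests of single genes used log2 CPM with a prior count of 2 and all 252 splits of the 10 rats compared. Correlations used 100000 permutations within groups. The alternatives used DESeq2 1.42.0, limma 3.58.1, other normalizations and filters, other sets of libraries, the replicate number as a block and thinned counts. Figures were drawn with matplotlib 3.10.9. The code was tested on simulated counts.

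The 3 genes and the lists were chosen with earlier results of these data known. The rule for named genes took the 3 genes by ID and, for each, the gene with the most similar deviations. Because IDs without symbols were limited to 2 with a log2 fold change above 0 and 2 below 0, and the closest genes of all 3 were above 0 in the mean diabetes contrast, the one closest to Nr3c1 is given by its r alone. Which of the 3 to leave without its ID was chosen after their values were seen. An Ensembl ID is given for 0 of the 47357 RefSeq genes, and lists of receptor-handling genes, further receptor targets and cell type markers were therefore not analysed here, and ventricle was not checked by its markers. Promoters of the 3 genes were matched by symbol in RefSeq, whose build differs from that of the counts. Duplicate libraries were looked for in 40 pairs within groups, and none was found, since the lowest chi-square per gene was 5.92.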

Additional observations from a re-analysis of the deposited data

Results flagged for a closer look

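Of 16 groups of 5 values, levels of the 3 genes and library totals in each group, 3 held a rat whose gap to its nearest neighbour was large against the range of the group, where chance gives about 0.8. WT control replicate 4 was low for Nr3c1 at 76.9 CPM, and without it the log2 fold change of Nr3c1 with diabetes in WT was -0.019. Vegfb KO control replicate 2 was high for Sgk1 at 24.3 CPM, and without it the log2 fold change of Sgk1 with diabetes in Vegfb KO was 0.16. WT diabetic replicate 1 had a low total of 12965611 counts, and its Fkbp5 level of 68.8 CPM was inside the range of its group. What set these values apart was not tested.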

How the results depend on the processing

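Fkbp5 was called for diabetes in WT under all 11 alternatives (log2 fold change 1.63 to 1.75) and for the mean of both diabetes contrasts under all 10 (1.12 to 1.16). It was called for diabetes in Vegfb KO only when the 10 libraries compared were fitted alone (0.58), and for Vegfb KO against WT in diabetic rats by DESeq2 (-1.15) and edgeR's likelihood ratio test (-1.15). Its difference between control rats, close to 0, turned sign with DESeq2 (0.013), the likelihood ratio test (0.011), limma on unrounded values (0.019), DESeq2 size factors (0.0019), no filter (0.00040), the replicate block (0.015) and without both libraries that stand apart (0.0013). The difference of Sgk1 between diabetic genotypes turned sign with upper quartile scaling (0.0046) and thinned counts (0.046). Genes called between diabetic genotypes numbered 6, and 65 with DESeq2, 38 with the likelihood ratio test, 3 with limma and 3 with the 10 libraries alone. Leaving out each library gave -0.019 to 0.039 for Nr3c1 with diabetes in WT, -0.29 to 0.16 for Sgk1 with diabetes in Vegfb KO, -0.12 to 0.18 for Fkbp5 between controls, -1.33 to -1.002 for Fkbp5 and -0.22 to 0.19 for Sgk1 between diabetic genotypes, 643 (without Vegfb KO diabetic replicate 3) to 1244 genes called for diabetes in Vegfb KO, against 1121 with all libraries, and 2 to 181 (without WT diabetic replicate 3) between diabetic genotypes. The correlation of Nr3c1 and Fkbp5 ranged from -0.59 without Vegfb KO diabetic replicate 3 (permutation p = 0.0082, adjusted 0.0246) to -0.22. The adjustment does not cover the choice of that rat, and in 19 of the 20 fits the adjusted permutation p was above 0.05. For Nr3c1 and Sgk1 it ran from -0.51 without Vegfb KO diabetic replicate 4 (permutation p = 0.0376, adjusted 0.113) to -0.050 without WT diabetic replicate 5. For Fkbp5 and Sgk1 it ran from -0.16 to 0.14. The cause of these shifts was not tested. Correlations of same-numbered rats ran from -0.26 to 0.26, with 10 of 30 above 0.1, and 5 of 20 libraries were closest to their own number. A pairing of rats by replicate number was thus not detected, but these values cannot exclude it, since litters are not given. With the replicate block Fkbp5 rose by 1.75 with diabetes in WT, and 1785 genes were called in place of 1876. No call of the 3 genes changed with this block. Groups of 5 rats and the shallow libraries limit precision.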
